A study of Mus musculus with 8 samples.

Results

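To describe the endothelial programme of the second heart field (SHF), a list of 39 genes of the endothelium, the endocardium and the shared progenitors of blood and vessels was followed through sorted cells of the mouse embryo. The list was drawn up from what the genes are known to do, with earlier results of these data known. Of the 39 genes, 33 had a row among the 16302 genes of the deposited table and are called members here, while Etv2, Cldn5, Icam2, Rasip1, Nos3 and Myct1 were not analysed here. The SHF region of embryos at embryonic day 9.5 was dissected, pooled and sorted by reporter. GFP+ cells came from Hoxb1-GFP embryos (Hoxb1GFP), whose green reporter marks the posterior SHF, and Tomato+ cells from Mef2c-Cre;RosatdT embryos, in which an anterior heart field enhancer of Mef2c drives Cre and so labels those cells and their descendants in red. There were 3 libraries of GFP+ cells, 3 of Tomato+ cells, and 1 each of the unlabelled cells of either line (GFP- and Tomato-), each from pooled embryos and sorted by reporter alone. The methods list the GFP allele under the symbol of the Hoxb1 mutants, and an effect of the allele was not tested. Since the GFP+ and Tomato+ cells came from different lines, line and population cannot be told apart.

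Endothelial cells line the blood vessels, and the endocardium is the endothelium of the heart. At this stage both arise from mesoderm that expresses the VEGF receptor Kdr, under transcription regulators of the ETS family such as Erg and Fli1 and a complex of Tal1, Lyl1 and Lmo2, much of which is shared with blood cells. Once formed, the cells carry junction proteins such as VE-cadherin (Cdh5) and CD31 (Pecam1), and endocardial cells are in addition marked by Nfatc1 and Npr3. Cardiac progenitors of the SHF are known to give rise to myocardial, smooth muscle and endocardial or endothelial cells.

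The 8 libraries held 22668185 to 41597870 reads, of which 12765045 to 27249149 lay outside mitochondrial genes. Values below are normalized reads, the reads of a gene divided by a size factor of its library, and 3 reads corresponded to 2.16 to 4.53 normalized reads. In both groups replicates 1 and 3 were near copies of each other. Their reads differed by a chi-square per degree of freedom of 2.34 in GFP+ and 2.37 in Tomato+ cells, against 71.8 to 91.9 for the other pairs. Amplified reads are not independent molecules, so this does not tell whether replicates 1 and 3 are separate samples or repeats of 1 pool. If they are repeats, n = 3 below stands for 2 samples and the p-values are too small. All 3 were kept, and calls with replicates 1 and 3 averaged are given beside the main calls. Mitochondrial ribosomal RNA took 39.1% of the reads in GFP+ replicate 2 and 41.7% in Tomato+ replicate 2, and 31.4% to 32.4% in replicates 1 and 3. No label ties the replicates to separate pools of embryos, so the p-values measure only the spread between these libraries.

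Many endothelial genes were lower in the GFP+ cells of the posterior SHF than in the Tomato+ cells, while the early receptors Kdr, Flt1 and Tek were not called and Npr3 and, less firmly, the apelin genes were higher. Of the 33 members, 17 were called lower in GFP+ cells, where 20.0% of all 16153 genes tested were, and 3 were called higher (Npr3, Aplnr and Apln), where 19.7% of all genes were. A call was a Benjamini-Hochberg adjusted p under 0.05 with limma on log2(normalized reads + 1), and all 33 members passed the minimum mean of 10 normalized reads. The median log2 fold change of the members was -1.31, beside -0.01 over all genes tested. None of the 20 called members overlapped between the groups, which was also so for 99.4% of all called genes and, called or not, for 54.6% of all genes tested. With replicates 1 and 3 averaged, 10 members were called lower (9.24% of all genes) and 1 higher, Npr3 (8.9% of all genes). Summed over the members, the level was 5376 to 5543 normalized reads in GFP+ libraries and 7700 to 8253 in Tomato+ libraries, without overlap. In sorted but bulk RNA, fewer cells of a type and less RNA per cell cannot be told apart.

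**Figure D1:**
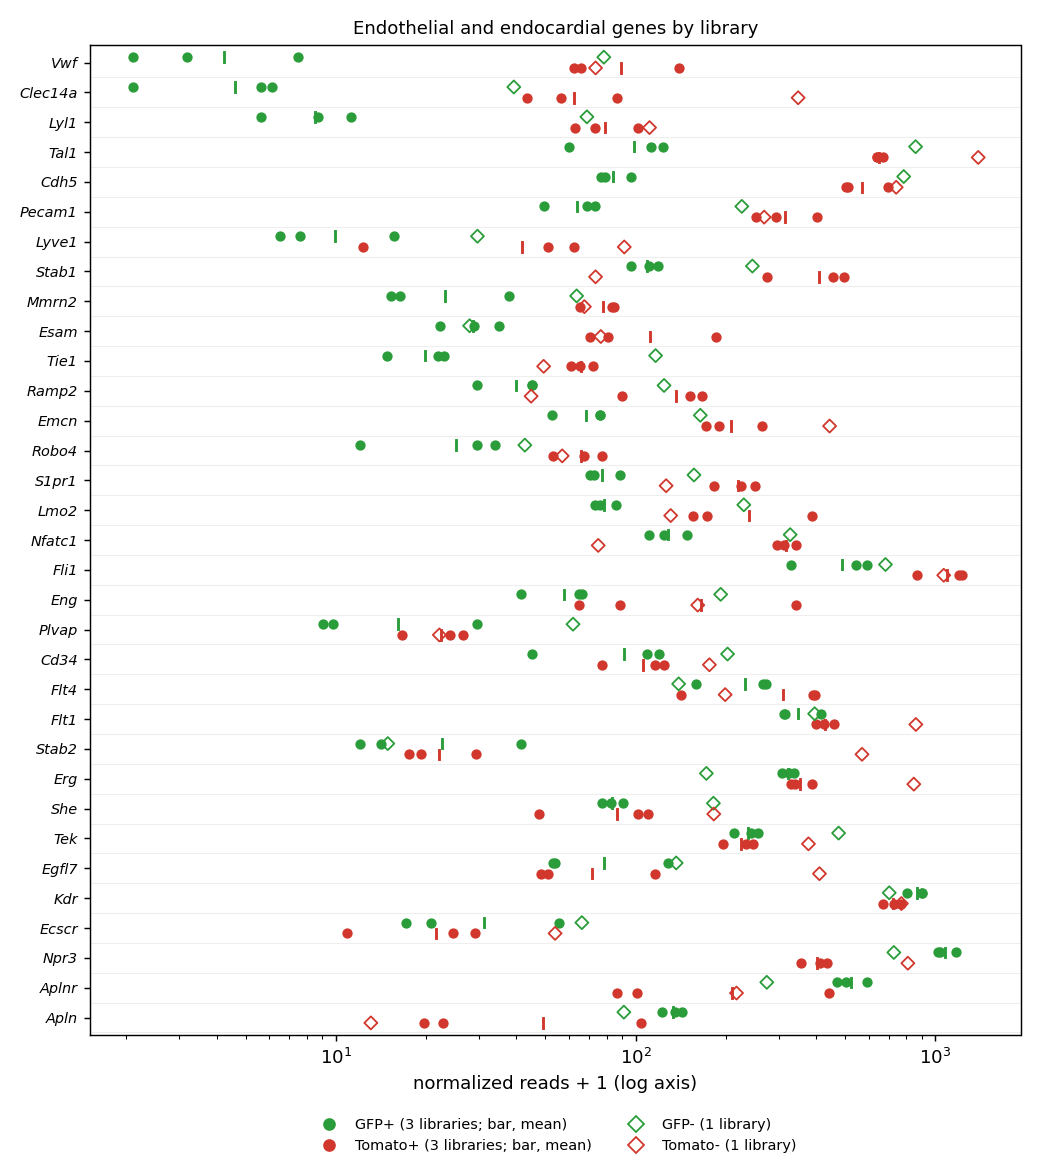
Normalized reads + 1 of the 33 members on a log axis, with 3 GFP+ and 3 Tomato+ libraries as filled circles (vertical bars, group means) and the GFP- and Tomato- libraries as open diamonds, ordered by the log2 fold change from -4.49 for Vwf to 1.89 for Apln. From Vwf at the top down to Fli1 the groups are apart with GFP+ to the left, except for Lyve1, and in the 3 bottom rows GFP+ lies to the right.

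To see whether the members share sequence where transcription starts, the promoter windows of RefSeq on GRCm38.p6 (250 bases before to 50 after a start) were searched for short motifs on both strands. Windows were found for 19 of the 33 members, 24 windows in all, beside 13497 windows of genes in the table and 32851 of all genes. The longer ETS motif ACAGGAAG was in 3 member windows, of which 2 belong to Egfl7 and 1 to Emcn, or 12.5%, against 3.23% for genes in the table and 3.58% for all genes. The other ETS motif CCGGAAG was in 4.17% of member windows, 15.9% for genes in the table and 8.86% for all genes. The GATA motif AGATAA was in 12.5%, 6.71% and 11.2% of these windows, the forkhead motif TGTTTA in 8.33%, 8.94% and 13.4%, and the E-box CAGATG in 20.8%, 11.7% and 17.2%. These shares rest on at most 5 member windows each, no listed motif contains another, and a match is not a binding site. Windows of 4 members are shown because the comparison turns on them, Tal1 and Emcn as lower members, Kdr as an early receptor that was not called, and Npr3 as the higher member that held under averaging. Capitals mark matches to the 5 motifs on either strand, read 5′ to 3′ along the gene. The Tal1 window shown is chr4:115056176-115056475 (plus strand) and holds AGATAA and CAGATG on the opposite strand, and a second Tal1 window, chr4:115057561-115057860, holds none of the 5 motifs. Emcn lies at chr3:137340828-137341127 (plus strand) and holds ACAGGAAG on the opposite strand. Kdr lies at chr5:75978406-75978705 (minus strand) and holds CAGATG, and Npr3 lies at chr15:11907322-11907621 (minus strand) and holds none of the 5.
Tal1: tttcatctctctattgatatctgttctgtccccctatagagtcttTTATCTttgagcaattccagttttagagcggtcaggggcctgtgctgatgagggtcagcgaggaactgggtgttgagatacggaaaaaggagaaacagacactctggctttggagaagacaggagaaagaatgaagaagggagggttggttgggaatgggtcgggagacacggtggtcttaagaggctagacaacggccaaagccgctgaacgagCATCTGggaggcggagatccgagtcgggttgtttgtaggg
Emcn: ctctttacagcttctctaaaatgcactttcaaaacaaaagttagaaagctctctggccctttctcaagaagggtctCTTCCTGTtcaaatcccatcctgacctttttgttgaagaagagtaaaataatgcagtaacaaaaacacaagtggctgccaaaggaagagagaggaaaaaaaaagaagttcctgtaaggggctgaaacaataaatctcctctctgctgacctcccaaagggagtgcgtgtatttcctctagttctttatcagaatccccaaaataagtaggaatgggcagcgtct
Kdr: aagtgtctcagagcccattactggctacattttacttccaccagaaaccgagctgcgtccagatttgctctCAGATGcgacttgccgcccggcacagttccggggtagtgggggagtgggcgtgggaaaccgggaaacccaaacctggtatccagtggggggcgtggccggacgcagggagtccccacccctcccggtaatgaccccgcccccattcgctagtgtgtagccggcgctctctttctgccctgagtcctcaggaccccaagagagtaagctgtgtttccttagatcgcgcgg
Npr3: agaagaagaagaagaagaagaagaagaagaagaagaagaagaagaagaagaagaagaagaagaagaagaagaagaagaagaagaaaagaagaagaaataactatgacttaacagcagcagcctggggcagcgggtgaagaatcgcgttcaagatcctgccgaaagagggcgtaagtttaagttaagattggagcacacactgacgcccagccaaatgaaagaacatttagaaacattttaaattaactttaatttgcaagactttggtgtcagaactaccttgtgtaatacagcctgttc

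Among the 6 transcription regulators in the table, 5 were called lower in GFP+ cells and Erg was not, beside 20.0% of all genes called lower. The result was the same when replicates 1 and 3 were averaged, beside 9.24% of all genes. Tal1, a basic helix-loop-helix factor needed for blood and endocardial development (chromosome 4, 115056426 to 115071755 on GRCm38), was at 111, 59.0 and 122 normalized reads in the GFP+ libraries and at 636, 637 and 667 in the Tomato+ libraries. Every Tomato+ library was far above every GFP+ library, and GFP+ replicate 2 was the lowest. The log2 fold change of Tal1 was -2.78 ± 0.28 (SE, n = 3 per group, adjusted p = 0.000269 with limma, 5.5e-05 with replicates 1 and 3 averaged). Its relative Lyl1 was low throughout, at 4.61 to 10.2 normalized reads in GFP+ and 61.9 to 101 in Tomato+ cells, with a log2 fold change of -3.24 ± 0.51 (adjusted p = 0.00204, 0.0307 averaged, limma). Lmo2, the LIM-only protein that bridges Tal1 to its partners (chromosome 2, 103957986 to 103981878), was at 72.4, 84.8 and 74.9 normalized reads in GFP+ libraries and at 172, 385 and 154 in Tomato+ libraries. The groups did not overlap, although Tomato+ replicate 2 stood well above the near copies beside it, and the log2 fold change was -1.48 ± 0.37 (adjusted p = 0.0147, 0.0340 averaged, limma).

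The ETS factors split. Fli1, an ETS factor of blood and endothelium (chromosome 9, 32422204 to 32542861), was at 589, 329 and 544 normalized reads in GFP+ libraries and at 1196, 869 and 1221 in Tomato+ libraries. In both groups replicate 2 was the lowest, and the highest GFP+ library stayed under the lowest Tomato+ library. Its log2 fold change was -1.19 ± 0.24 (adjusted p = 0.00623, 0.00609 averaged, limma). Erg, an ETS factor that maintains endothelial identity, was at 307 to 336 normalized reads in GFP+ and 329 to 388 in Tomato+ libraries, with a log2 fold change of -0.13 ± 0.15 and no call (adjusted p = 0.537, limma). Nfatc1, the endocardial regulator of valve formation (chromosome 18, 80606205 to 80713071), was at 123, 147 and 110.1 normalized reads in GFP+ libraries and at 340.4, 294 and 311 in Tomato+ libraries. The groups were apart with little spread inside either. The log2 fold change of Nfatc1 was -1.31 ± 0.20 (adjusted p = 0.00168, 0.0467 averaged, limma).

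Junction and surface proteins were the largest group, with 9 genes in the table. Of these, 6 were called lower in GFP+ cells (20.0% of all genes) and none higher (19.7% of all genes). With averaged replicates 3 were still called lower, Cdh5, Pecam1 and Emcn, beside 9.24% of all genes. Cdh5, the cadherin of endothelial junctions (chromosome 8, 104101625 to 104144511), was at 95.8, 75.6 and 78.2 normalized reads in GFP+ libraries and at 501, 694 and 511 in Tomato+ libraries. No GFP+ library came near the Tomato+ range, and the mean was 83.2 ± 11.0 (SD, n = 3) against 568 ± 109 (SD, n = 3), a 6.83-fold difference. The log2 fold change of -2.75 ± 0.21 had an adjusted p of 7.9e-05 (5.4e-05 averaged, limma). Pecam1, an adhesion molecule of endothelium, platelets and leukocytes (chromosome 11, 106654217 to 106750628), was at 68.0, 71.9 and 48.4 normalized reads in GFP+ libraries and at 292, 401 and 252 in Tomato+ libraries. It too was clearly separated, with a log2 fold change of -2.30 ± 0.28 (adjusted p = 0.000596, 0.0021 averaged, limma). Emcn, a sialomucin of venous and capillary endothelium and of endocardium (chromosome 3, 137341067 to 137432185), was at 75.3, 51.6 and 74.9 normalized reads in GFP+ libraries and at 188, 263 and 171 in Tomato+ libraries. Replicate 2 was the lowest GFP+ and the highest Tomato+ library, and the log2 fold change was -1.61 ± 0.29 (adjusted p = 0.0036, 0.0265 averaged, limma).

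Calls of the other junction genes were less firm. Esam, a tight junction adhesion molecule (chromosome 9, 37528078 to 37538319), was at 27.8, 21.2 and 34.1 normalized reads in GFP+ libraries and at 69.2, 184 and 79.8 in Tomato+ libraries. Tomato+ replicate 2 lay far above its group, and the log2 fold change of -1.85 ± 0.46 was called (adjusted p = 0.0155, limma) but not with averaged replicates (0.0588). Clec14a, a C-type lectin of endothelium, was at 1.10 to 5.12 normalized reads in GFP+ libraries, close to the level of 3 reads, and at 42.5 to 85.6 in Tomato+ libraries (log2 fold change -3.84 with 1 added to each value, adjusted p = 0.00353, 0.0667 averaged, limma). Robo4, a roundabout receptor of endothelium, was at 11.1 to 32.9 and 51.9 to 76.4 normalized reads, and its call (adjusted p = 0.0471, limma) was lost without any of GFP+ replicates 1 and 3 and Tomato+ replicates 1, 2 and 3, with an adjusted p of up to 0.132, and with averaged replicates (0.191). Cd34, Plvap and Ecscr overlapped between the groups and were not called, with log2 fold changes of -0.31, -0.67 and 0.44.

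Of the 6 receptors for VEGF, angiopoietin and BMP ligands, 1 was called lower and none higher, near the 20.0% and 19.7% of all genes, and their median log2 fold change was -0.31. Kdr, the main VEGF receptor and an early marker of vascular and cardiac mesoderm (chromosome 5, 75932827 to 75978458), was at 802, 901 and 899.6 normalized reads in GFP+ libraries and at 724, 669.6 and 766 in Tomato+ libraries. All GFP+ libraries were above all Tomato+ libraries by a small margin. The log2 fold change of Kdr was 0.27 ± 0.11 and did not pass (adjusted p = 0.0948, 0.418 averaged, limma). Tek, the angiopoietin receptor Tie2 (chromosome 4, 94739289 to 94874976), was at 211, 254 and 242 normalized reads in GFP+ libraries and at 246, 194 and 233 in Tomato+ libraries. These ranges overlapped, and the log2 fold change of 0.08 ± 0.19 was not called (adjusted p = 0.773, limma). The related Tie1 was the called receptor, at 13.8 to 21.9 normalized reads in GFP+ and 60.1 to 70.8 in Tomato+ libraries, with a log2 fold change of -1.75 ± 0.40 (adjusted p = 0.0111, limma) that did not pass without Tomato+ replicate 3 (0.0544) or with averaged replicates (0.167).

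Flt1, the decoy VEGF receptor, was at 312 to 416 normalized reads in GFP+ and 399 to 457 in Tomato+ libraries, and Flt4, the receptor of Vegfc, at 159 to 271 and 140.2 to 395. Neither was called, both with a log2 fold change of -0.31. Without GFP+ replicate 2 Flt1 was called lower (log2 fold change -0.44, adjusted p = 0.0272, limma). That omission leaves only the near copies 1 and 3 in the GFP+ group, so this p-value is too small if those are repeats. With averaged replicates Flt1 had an adjusted p of 0.617 (limma). Eng, the BMP and TGF-β co-receptor endoglin, was at 40.6 to 65.1 normalized reads in GFP+ libraries and at 63.7, 341 and 87.7 in Tomato+ libraries. Its difference rested on Tomato+ replicate 2 and was not called (log2 fold change -1.15, adjusted p = 0.165, limma). Of the alternatives, only DESeq2 called Eng lower. Replicate 2 also stood apart within both groups at once for some members. Flt4 was at 159 and 140.2 normalized reads in replicate 2 of GFP+ and Tomato+ cells and at 264 to 395 in the others, whereas Egfl7, a secreted matrix protein of endothelium, was at 127 and 115 in replicate 2 and at 47.5 to 52.9 in the others. The higher mitochondrial share of these 2 libraries was given above, and its part in these values was not tested. Flt4 and Egfl7 are picked examples. Over all genes tested, the deviations of replicate 2 from its group mean had a correlation of 0.0150 between GFP+ and Tomato+ cells.

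**Figure D2:**
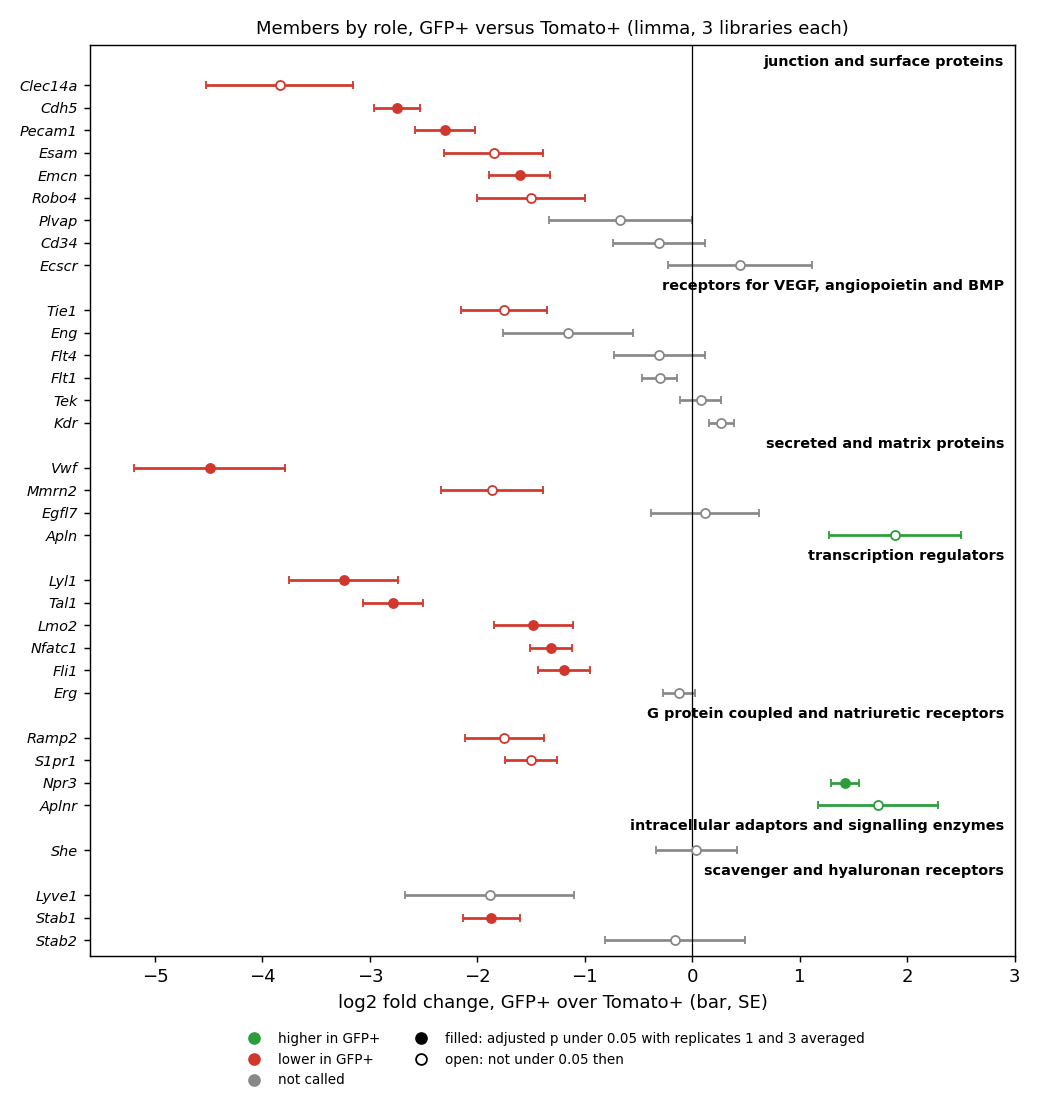
Log2 fold change of GFP+ over Tomato+ cells (bars, SE, limma with 3 libraries per group) for the 33 members grouped by role, green for called higher, red for called lower and grey for not called. Filled points also had an adjusted p under 0.05 with replicates 1 and 3 averaged, which held for 11 of the 20 called members, among them 5 of the 6 transcription regulators and none of the 6 receptors for VEGF, angiopoietin and BMP ligands.

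The 3 members that were called higher in GFP+ cells, fewer than the 19.7% of all genes would give, were a natriuretic peptide receptor and the apelin pair. Npr3, the natriuretic peptide clearance receptor that marks endocardium (chromosome 15, 11839896 to 11907287), was at 1037, 1166 and 1019.7 normalized reads in GFP+ libraries and at 412, 435 and 355 in Tomato+ libraries. With a 2.68-fold difference and no overlap, it went the opposite way from Nfatc1, with which it shares the endocardium. The log2 fold change of Npr3 was 1.42 ± 0.13 (adjusted p = 0.000164, 0.000726 averaged, limma). Aplnr, the apelin receptor of mesoderm and endothelium (chromosome 2, 85136225 to 85139923), was at 500.2, 592 and 469 normalized reads in GFP+ libraries and at 85.6, 440.3 and 100.0 in Tomato+ libraries. Tomato+ replicate 2 came close to the GFP+ range, and the near copies lay far below it. The log2 fold change of Aplnr was 1.73 ± 0.56 (adjusted p = 0.0409, limma).

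Apln, the apelin ligand (X chromosome, 48025146 to 48034853), repeated this pattern, at 134, 122 and 142 normalized reads in GFP+ libraries and at 21.8, 103 and 18.7 in Tomato+ libraries. Again Tomato+ replicate 2 was close to GFP+ cells, and the log2 fold change of Apln was 1.89 ± 0.62 (adjusted p = 0.0423, limma). Neither apelin gene was called with averaged replicates (0.0553 for Aplnr and 0.176 for Apln) or without any of GFP+ replicates 1, 2 and 3 and Tomato+ replicates 1 and 3, with an adjusted p of up to 0.117 and 0.120. Without Tomato+ replicate 2 both adjusted p-values were lower, 0.000411 and 0.000777 (limma). That omission leaves only the near copies 1 and 3 in the Tomato+ group, so these p-values are too small if those are repeats.

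S1pr1, the sphingosine-1-phosphate receptor of endothelium (chromosome 3, 115710433 to 115715072), was at 71.7, 87.6 and 69.4 normalized reads in GFP+ libraries and at 223, 181 and 249 in Tomato+ libraries. The lowest Tomato+ library was above the highest GFP+ library, and the log2 fold change was -1.50 ± 0.24 (adjusted p = 0.00235, 0.0681 averaged, limma). Ramp2, the partner of the adrenomedullin receptor (chromosome 11, 101246028 to 101259546), was at 28.5, 44.2 and 44.0 normalized reads in GFP+ libraries and at 166, 89.2 and 151 in Tomato+ libraries. Tomato+ replicate 2 was nearest to GFP+ cells, and the log2 fold change was -1.75 ± 0.37 (adjusted p = 0.0074, 0.125 averaged, limma). The exons of Ramp2 share 1103 bases, 33.4% of its exonic length, with Vps25 on the same strand, so its counts are uncertain. Of the 33 members, 24 share no exonic base with another gene. In the other 8 the largest overlap with any other gene was 7.37% or less, and overlaps with several genes were not added up.

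Of the 4 secreted and matrix proteins, Vwf and Mmrn2 were called lower (20.0% of all genes) and Apln higher (19.7% of all genes). Egfl7 was not called (log2 fold change 0.12). Vwf, the von Willebrand factor of endothelium and platelets, was at 2.19, 6.45 and 1.10 normalized reads in GFP+ libraries and at 64.6, 139 and 61.1 in Tomato+ libraries. Its GFP+ values were near the level of 3 reads, so the fitted log2 fold change of -4.49 ± 0.70 depends on the added 1 (adjusted p = 0.00197, 0.0148 averaged, limma). Mmrn2, a multimerin of the endothelial matrix, was at 14.3 to 36.9 normalized reads in GFP+ and 64.0 to 83.7 in Tomato+ libraries (log2 fold change -1.86, adjusted p = 0.0165, limma). It was not called without GFP+ replicate 1, GFP+ replicate 3 or Tomato+ replicate 1, with an adjusted p of up to 0.0689, or with averaged replicates (0.180). In all, 6 of the 17 lower members had means under 100 normalized reads in both groups, Vwf, Clec14a, Lyl1, Mmrn2, Tie1 and Robo4.

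Scavenger receptors and the adaptor made up the rest. Stab1, a scavenger receptor of sinusoidal endothelium and macrophages (chromosome 14, 31139013 to 31168641), was at 109.7, 118 and 95.8 normalized reads in GFP+ libraries and at 496, 273 and 455 in Tomato+ libraries. The groups were well apart, and the log2 fold change was -1.87 ± 0.26 (adjusted p = 0.00122, 0.00976 averaged, limma). Lyve1, the hyaluronan receptor of lymphatic endothelium and some macrophages, was at 5.53 to 14.6 normalized reads in GFP+ libraries and at 50.1, 11.3 and 61.1 in Tomato+ libraries, which overlapped. Lyve1 was not called, with a log2 fold change of -1.88 (adjusted p = 0.0919, limma). It was called lower with DESeq2 and without Tomato+ replicate 2 (adjusted p = 0.00891, limma). That omission leaves only the near copies 1 and 3 in the Tomato+ group, so this p-value is too small if those are repeats. Stab2, the hyaluronan scavenger receptor of sinusoids, was at 11.0 to 40.6 normalized reads in GFP+ and 16.5 to 28.3 in Tomato+ libraries, and She, an SH2 domain adaptor, at 76.0 to 89.4 and 46.7 to 109. Neither of these was called.

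Blood cells also express part of this list, and their markers moved with the members. A list of genes that blood cells also express held 12 members in the table. Of these, 8 were called lower in GFP+ cells and none higher, with a median log2 fold change of -1.81. A member that is not on this list may still be expressed by blood cells. Of the other 21, 9 were called lower and 3 higher, with a median of -0.67, beside 20.0% and 19.7% of all genes. With averaged replicates 7 of the 12 were called lower, with a median of -1.68. Of the other 21, 3 were then called lower and 1 higher, 17 were not called, and the median was -0.29. Over all genes 9.24% were then called lower and 8.9% higher. The 11 erythroid markers in the table summed to 953 to 1368 normalized reads in GFP+ libraries and to 114123 to 138873 in Tomato+ libraries, and all 11 were called lower. The 11 macrophage and leukocyte markers summed to 227 to 330 and 2352 to 3048 normalized reads, with 10 called lower, and the 6 megakaryocyte and platelet markers to 181 to 255 and 766 to 957, with 5 called lower. With averaged replicates the calls were 11 erythroid, 8 macrophage and leukocyte, and 3 megakaryocyte and platelet markers. Pf4, Ppbp and C1qb were at 0 in every GFP+ library, which allows up to 3 reads in each. The part of blood cells in the members' values was not tested.

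The 4 defining endothelial markers that were in the table, Cdh5, Pecam1, Tie1 and Emcn, were present in all libraries. They summed to 213 to 261 normalized reads in GFP+ libraries and to 998 to 1428 in Tomato+ libraries. Cdh5 and Emcn, which are not on the list of genes shared with blood cells, were both lower in GFP+ cells, as given above. They do not stand for all 21 members off that list, of which 9 were called lower, 3 higher and 9 not called. With averaged replicates 3 of the 21 were called lower, 1 higher and 17 not called. Markers of other cells moved the other way. The 12 cardiomyocyte markers summed to 30695 to 35652 normalized reads in GFP+ and 4359 to 4906 in Tomato+ libraries, with 10 called higher (10 averaged). The 7 epithelial markers summed to 7121 to 8006 and 776 to 970.2, with all 7 called higher (6 averaged). Over all genes 19.7% were called higher (8.9% averaged). How far these other cells moved the members was not tested.

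**Figure D3:**
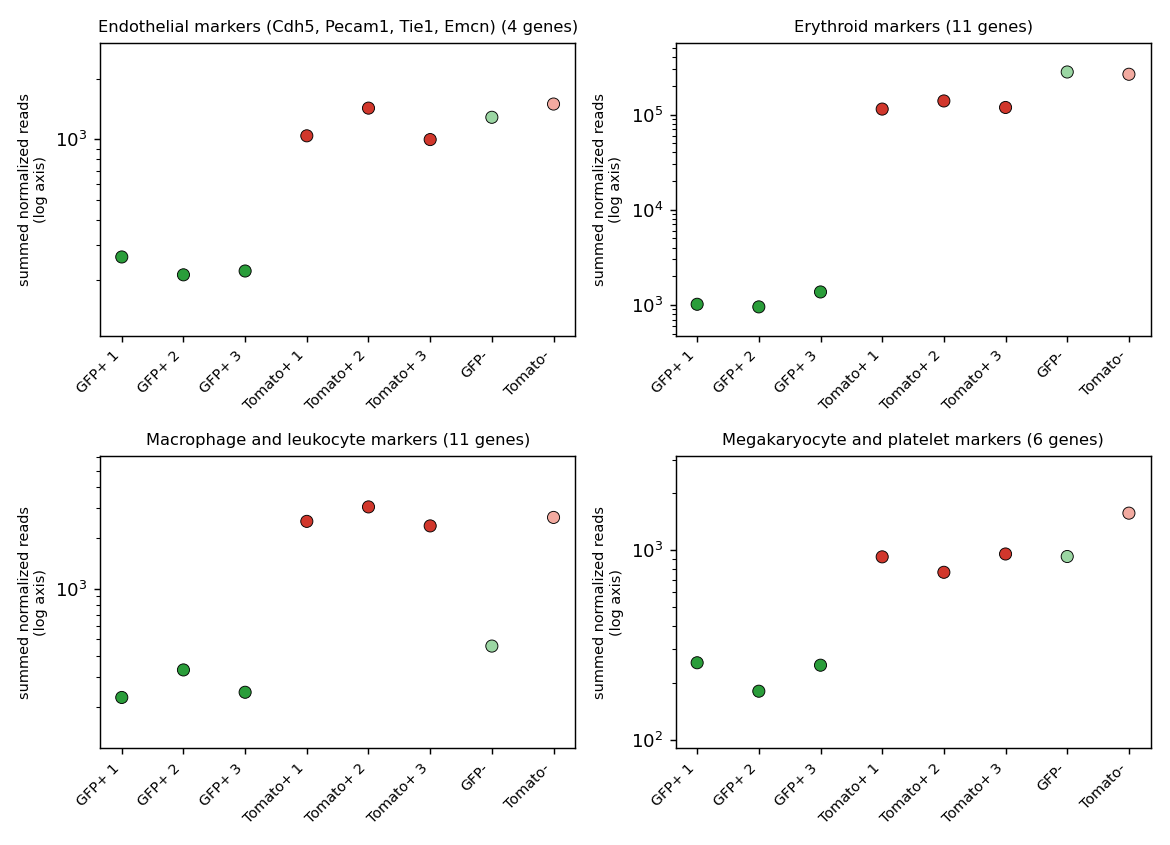
Summed normalized reads (log axis) of 4 endothelial, 11 erythroid, 11 macrophage and leukocyte, and 6 megakaryocyte and platelet markers in each of the 8 libraries, 1 point per library. GFP+ libraries are lowest in all 4 panels, at 213 to 261 for the endothelial and 953 to 1368 for the erythroid markers, and the GFP- library is high for erythroid (279898) but low for macrophage markers (457).

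Scaling to the reads outside mitochondrial genes, in place of the size factors, moved the median log2 fold change of all genes to -0.14. With that scaling 17 members were called lower (24.8% of all genes) and 1 higher, Npr3 (14.7% of all genes), and the members' median was -1.45. Over all genes the calls shifted from 3186 higher and 3224 lower to 2378 higher and 4004 lower. The apelin genes lost their calls, with adjusted p of 0.0546 for Aplnr and 0.0552 for Apln (limma), and Tek changed sign to -0.06.

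To ask how the sorted cells compared with the rest of the dissected region, each positive group was set beside its lone negative library. With 1 negative library per line no test was run. A gene was counted as apart if each of the 3 positive libraries differed from the negative library by 2-fold or more in the same direction, on normalized reads + 1, with a minimum of 50 normalized reads in the higher population. The same positive libraries serve here and above, so the comparisons are not independent. In the Hoxb1-GFP line 14 members were lower in GFP+ than in GFP- cells (3.63% of all genes) and none was higher (4.28% of all genes), though at 1.5-fold Erg and Aplnr were. Of these 14, 11 were also called lower than in Tomato+ cells. This overlap was not counted over all genes, and the same GFP+ libraries enter both comparisons. Cdh5 was at 783 normalized reads in GFP- cells, 9.41-fold above the GFP+ mean, Tal1 at 857 (8.80-fold), Tie1 at 116 (6.11-fold) and Pecam1 at 225 (3.58-fold). Eng, Plvap and She, which were not called against Tomato+ cells, were among the 14, at 191, 60.8 and 181 normalized reads in GFP- cells. The erythroid markers, at 279898 normalized reads, were also far higher in GFP- than in GFP+ cells, and their part in this difference was not tested.

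The Mef2c-Cre line was examined in the same way. In Tomato+ cells 5 members were lower than in Tomato- cells (6.69% of all genes), Egfl7, Erg, Tal1, Clec14a and Stab2. Another 3 were higher, Ramp2, Stab1 and Nfatc1, a share near the 7.92% of all genes. Stab2 was at 568 normalized reads in the Tomato- library and at 16.5 to 28.3 in Tomato+ libraries, a 27.0-fold difference of the means, while GFP- cells had 13.9. Clec14a was at 347 in Tomato- cells (5.68-fold above the Tomato+ mean), Egfl7 at 409 (5.79-fold), Erg at 846 (2.40-fold) and Tal1 at 1388 (2.15-fold). In the other direction, Nfatc1 was at 74.0 normalized reads in Tomato- cells and 4.26-fold higher in Tomato+ cells, and Stab1 was at 72.5 and 5.63-fold higher. Nfatc1 and Stab1 were thus higher in Tomato+ than in Tomato- cells but lower in GFP+ than in GFP- cells. The Tomato- library also had the largest mitochondrial ribosomal share of the 8 libraries, 49.3%, and its erythroid and blood progenitor markers summed to 264953 and 6944 normalized reads, above the Tomato+ ranges of 114123 to 138873 and 2657 to 3265. The part of these in the ratios, and whether the lines differ in them, was not tested.

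**Figure D4:**
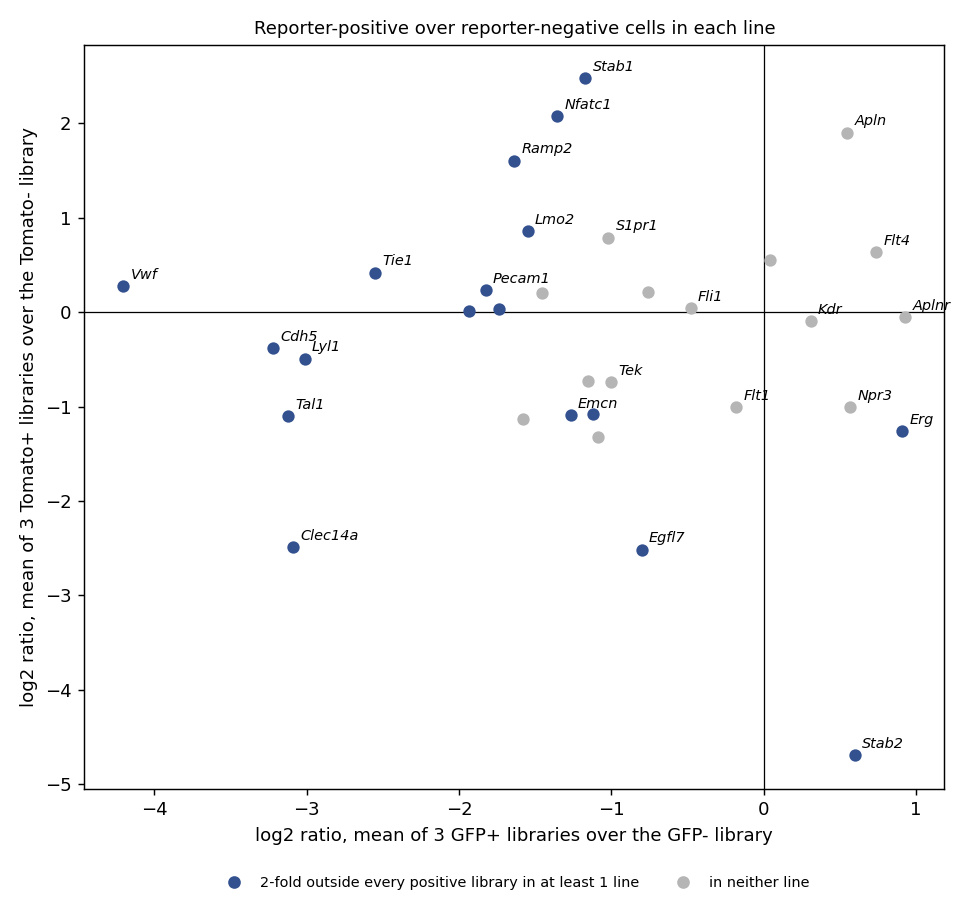
Log2 ratio (normalized reads + 1) of the mean of 3 reporter-positive libraries to the lone negative library in the Hoxb1-GFP line (x axis) and in the Mef2c-Cre line (y axis) for the 33 members, blue where a member was counted as apart in at least 1 line. Stab1 (-1.17 and 2.48), Nfatc1 (-1.36 and 2.08) and Ramp2 (-1.64 and 1.61) sit at the upper left, and Stab2 (0.60 and -4.69) at the bottom.

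Across the 4 populations, GFP+ cells had the lowest level of 20 of the 33 members and the highest of 4, Kdr, Aplnr, Apln and Npr3. Tomato- cells had the highest level of 10 members, Tomato+ cells of 11 and GFP- cells of 8. The same counts were not made over all genes, so they describe these members and do not set them apart from other genes. The positive libraries are also those compared above. Cdh5 was ordered GFP- (783), Tomato- (738), Tomato+ (568 ± 109, SD, n = 3) and GFP+ (83.2 ± 11.0, SD, n = 3), where the first 3 differed by less than 2-fold. Kdr varied least across populations among the members given in full, with 868 ± 56.7 normalized reads in GFP+ cells, 719.7 ± 48.3 in Tomato+ cells (each SD, n = 3), 700.1 in GFP- and 769 in Tomato- cells. The GFP- and Tomato- levels of Kdr lay within or close to the Tomato+ range. The summed level of the members was 8060 normalized reads in GFP- and 10864 in Tomato- cells.

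Levels of different genes were compared per kb of annotated exon. In GFP+ cells the highest levels were those of Aplnr (141 normalized reads per kb), Fli1 (139.8), Npr3 (114), Kdr (96.1) and Erg (92.8). In Tomato+ cells they were those of Fli1 (314), Tal1 (148), Cdh5 (135), Lmo2 (109) and Erg (101). Per kb, Cdh5 was the fourteenth of the 33 members in GFP+ cells and the third in Tomato+ cells, and Tal1 was the highest member in both negative libraries, at 196 and 317 normalized reads per kb. In GFP+ cells the leading members were thus the receptors of apelin, natriuretic peptide and VEGF beside the ETS factors, with the junction genes further down. Much of this order was not particular to GFP+ cells. In Tomato+ cells Fli1 ranked 1, Erg 5, Kdr 6, Aplnr 8 and Npr3 12, and of the junction genes Pecam1 ranked 9, Esam 17 and Emcn 18.

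Of 42 other genes of vascular signalling in the table, 13 were called higher in GFP+ cells, 8 lower and 21 were not called, with a median log2 fold change of 0.28. Over all genes 19.7% were higher and 20.0% lower, so the lower share was near the background. With averaged replicates 7 were called higher and 3 lower, beside 8.9% and 9.24% of all genes. Among 10 ligands and co-receptors 6 were called higher and 1 lower (3 and 0 averaged). Apela, the other ligand of the apelin receptor, had a mean of 295 ± 55.7 normalized reads (SD, n = 3) in GFP+ cells and of 12.7 ± 3.67 (SD, n = 3) in Tomato+ cells, a 23.2-fold difference (log2 fold change 4.45 ± 0.36, adjusted p = 9.9e-05, limma). Vegfa, the main ligand of Kdr, was at 1628 ± 452 against 795 ± 88.9 normalized reads (log2 fold change 1.0 ± 0.19, adjusted p = 0.00488, 0.00243 averaged, limma). The ligand called lower, Vegfd, named after its values were seen, was at 160.3 ± 23.4 against 285 ± 7.81 normalized reads (log2 fold change -0.83 ± 0.19, adjusted p = 0.0106, 0.147 averaged and 0.0552 without Tomato+ replicate 3, limma).

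Arterial, venous and Notch genes were called higher in 4 and lower in 1 of 12 cases (2 and 1 averaged), and transcription factors in 1 and 3 of 11 (0 and 0 averaged). Notch1, the receptor of arterial and endocardial signalling, was at 1111 ± 83.6 normalized reads in GFP+ and 3611 ± 159 in Tomato+ cells (log2 fold change -1.70 ± 0.09, adjusted p = 1.7e-05, limma). Gata2, a factor of blood and endothelium, was at 40.9 against 104 normalized reads (log2 fold change -1.35, adjusted p = 0.0112, 0.162 averaged, limma). Without Tomato+ replicate 1 or 3 it was not called, with an adjusted p of up to 0.0533. Mef2c was 1.38-fold higher in GFP+ cells (adjusted p = 0.00488, 0.104 averaged, limma). None of 5 BMP and TGF-β receptors and Smads was called higher and 2 were called lower (0 and 1 averaged). Of 4 endocardial signals 2 were called higher and 1 lower (2 and 1 averaged). The lower one was Plxnd1, a semaphorin receptor of endothelium, at 325 ± 70.8 against 809.6 ± 91.5 normalized reads (log2 fold change -1.33 ± 0.19, adjusted p = 0.00133, limma). Over all genes 19.7% were called higher and 20.0% lower (8.9% and 9.24% averaged), beside which these short lists can be read.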

How the data were processed

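RNA of sorted cells from the second heart field region at embryonic day 9.5 was compared in 8 libraries, grouped by the labels. Libraries were made from 2 ng of RNA with the Ovation V2 kit, which amplifies and keeps no strand, per the labels, and the submitters' processing notes name bcl2fastq 2.17.1.14, STAR 2.5.2, HTSeq, DESeq2 and R 3.3.4 on mm10. A methods paragraph of the paper that names these cells describes another workflow, and the annotation behind the counts is not given in the sources used here. Raw reads were not used here.

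The authors' deposited table holds, per library, a signal made by dividing reads by a size factor. Further columns of the deposited table give the authors' own log2 fold change, a score (their test statistic) and a p-value with its adjustment, and none of these was used. Multiplication by a single factor per library gave whole reads within 0.01 for 100.0% of values. The floor of 3 reads covers counting error alone, because amplification copies molecules.

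The main test took limma 3.58.1 (R 4.3.3, mean-variance trend) to log2(normalized reads + 1) of the 3 GFP+ and 3 Tomato+ libraries, for 16153 genes whose mean reached 10. It was two-sided, with Benjamini-Hochberg adjustment and a threshold of 0.05. Fold changes on this scale understate the change of low genes. Alternatives were another pseudocount, other filters, averaging replicates 1 and 3, a replicate block, all 8 libraries in 1 fit, scaling to non-mitochondrial reads, leaving out each library, and edgeR 4.0.16 and DESeq2 1.42.0 on the recovered reads. Of 16302 symbols, 15768 (96.7%) matched exactly 1 gene of GENCODE release M21 on GRCm38. The limma fit was tested on simulated data with independent replicates, so near copies were not part of that test. Members given in every library were Cdh5, Pecam1, Kdr, Tek, Nfatc1 and Npr3 and the called, non-overlapping members with the largest fold changes and a mean of at least 100 in the higher group. Of the other pathway genes, those named were the 4 called genes with the largest fold changes and such a mean, Vegfa and Mef2c. Members and lists were chosen with earlier results of these data known.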

Additional observations from a re-analysis of the deposited data

Results flagged for a closer look

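For 7 of the members given in every library, all 3 positive libraries lay on one side of the negative library in the Hoxb1-GFP line and all 3 on the other side in the Mef2c-Cre line. Over all 33 members this was so for 9 (27.3%), Tie1 and Erg included, near the 23.7% of all genes. The difference between the lines was not tested, since each negative population is 1 library. As log2 ratios of the positive mean over the negative library on normalized reads + 1, in the Hoxb1-GFP line and then in the Mef2c-Cre line, Nfatc1 was at -1.36 and 2.08, Stab1 at -1.17 and 2.48, Ramp2 at -1.64 and 1.61, Lmo2 at -1.55 and 0.86, and S1pr1 at -1.02 and 0.79. In the opposite sense, Npr3 was at 0.57 and -1.01, and Kdr at 0.31 and -0.0948, with a Tomato- level just above the highest Tomato+ library.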

How the results depend on the processing

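Over the alternatives, 11 of the 20 called members kept their call in every one that tested them. For the 16 members given in full, some of them chosen for being called with large fold changes, there were 240 values. Of these, 217 kept their direction and their side of the threshold, 21 lost their call and 2 changed sign. Both sign changes were of Tek, which was not called, at -0.0565 with scaling to reads outside mitochondrial genes and -0.0242 without Tomato+ replicate 2 (range -0.0242 to 0.15 over the omitted libraries). With replicates 1 and 3 averaged, 11 members were called, 10 lower and 1 higher, and over all genes 1437 were called higher and 1493 lower. A filter at a mean of 50 left 23 members, of which 11 were called lower, with a median of -1.15, through fewer genes tested. The median was -1.45 with scaling to reads outside mitochondrial genes and -1.47 to -1.22 over the omitted libraries. The count called higher was 1 with edgeR, 1 with that scaling, and 1 to 3 over the omitted libraries, with 3 only without Tomato+ replicate 2. That omission leaves only the near copies 1 and 3 in the Tomato+ group. DESeq2 called 2 higher and 19 lower members (3525 and 3642 of all genes), and edgeR 16 lower members (3091 higher and 3170 lower of all genes). Asking for 4-fold in place of 2-fold, 5 members were apart from GFP- cells and 2 from Tomato- cells, and asking for 1.5-fold 14 were apart from Tomato- cells and 20 from GFP- cells, 18 lower and 2 higher in GFP+ (Erg and Aplnr). Shares of all genes were not worked out at 4-fold and 1.5-fold, for the filter at 50 or for the omitted libraries. Those counts therefore show only how the members' own numbers moved with the setting.

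Samples with the same replicate number did not deviate together (correlations of 0.0228, 0.0150 and 0.0111). With a replicate block 18 members were called, 16 lower and 2 higher, and the shares of all genes with this block were not worked out. Depth limits Vwf and Clec14a, which had 1 read in a GFP+ library.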
